A study of Mus musculus with 13 samples.

Results

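The 10 genes described here encode enzymes of threonine breakdown, serine synthesis and folate-bound one-carbon metabolism: Tdh, Gcat, Gldc, Shmt1, Shmt2, Mthfd1, Mthfd2, Phgdh, Psat1 and Psph. They were taken by gene symbol from a table of 24470 genes, and all 10 were found and passed the filter on low counts. The study tested a low-input protocol that makes an ATAC library (open chromatin cut by the transposase Tn5) and an mRNA library from the same cells. The material was E14, a mouse embryonic stem cell line of the 129/Ola background, grown in serum with leukemia inhibitory factor and a supplement of nonessential amino acids, which contains serine and glycine. The labels name no mutation or drug treatment, and they set the groups apart by cell number, experiment and protocol. Experiment 1 gave low-input libraries from 10000 and 20000 cells, and experiment 2, on another day, gave libraries from 5000, 10000 and 20000 cells. That makes 5 mRNA and 5 ATAC libraries, and Omni-ATAC, an established protocol, added 1 ATAC library each from 5000, 10000 and 50000 cells. The Omni-ATAC labels name no experiment. Libraries of an experiment share a day, so p-values between experiments rest on the spread among libraries made within a day, and no experiment was repeated on a further day.

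Mouse embryonic stem cells are known for an unusual dependence on threonine. Threonine dehydrogenase (Tdh) and Gcat, in mitochondria, turn threonine into glycine and acetyl-CoA, and the glycine cleavage system, of which Gldc is the decarboxylase, passes a carbon of glycine to folate. Serine is the other main source of such carbons: Phgdh, Psat1 and Psph make it from a glycolytic intermediate, and Shmt1 (cytosol) and Shmt2 (mitochondria) split it into glycine and a folate-bound carbon. Mthfd1 in the cytosol and Mthfd2 in mitochondria carry that carbon between oxidation states for the synthesis of purines, thymidylate and methyl groups.

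The mRNA libraries held between 13727122 and 20426252 counts, and CPM below are counts scaled to that total. Transcript lengths were not used here, so CPM are compared between libraries for a gene and not between genes. The embryonic stem cell markers were present in every library, with a summed level over 8 genes of 2571 to 2693 CPM in the experiment 1 libraries and 2781 and 2820 CPM in experiment 2 (2745 CPM with 5000 cells). Of these 8 markers, 7 had positive log2 fold changes in experiment 2 against experiment 1 (median 0.18), and 2 were called, the pluripotency factors Klf4 (0.42 ± 0.13 SE, edgeR adjusted p = 0.0381) and Zfp42 (0.38 ± 0.11 SE, 0.0282), which lies on chromosome 8, where the median was 0.46. Over all genes tested 12.5% were called. Both calls were lost without any 1 of the 4 libraries. Most markers of other cell types had few counts, and their summed levels differed between the experiments. The sum of 8 fibroblast markers was 31.4 and 35.1 CPM in experiment 1 against 7.54 and 8.51 in experiment 2 (10.02 with 5000 cells). It was almost all Thy1, and Col3a1 and Lum were at 0 in every library. Of these 8, 2 could be tested and 1, Thy1, was called, as lower. The sum of 6 primitive endoderm markers was 10.4 and 14.3 CPM against 1.91 and 2.52 (2.74 with 5000 cells), and that of 6 mesoderm and neural markers was 4.59 and 6.89 CPM against 13.7 and 17.8 (12.1 with 5000 cells). Of the endoderm markers 3 could be tested and 2 were called, Dab2 and Gata6, both lower, and of the mesoderm and neural markers 4 could be tested and 1 was called, Pax6, as higher. The part of these shifts in the results below was not tested. In bulk libraries fewer cells of a type and less RNA per cell cannot be told apart.

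Of the 10 genes, Psat1 and Psph passed the test as higher in experiment 2 than in experiment 1 and none as lower, beside 12.5% of all genes called, 5.75% as higher and 6.76% as lower. A difference between the branches was not tested. Psat1, the aminotransferase of the serine pathway, was the gene of the 10 that differed most, with 1.61 times the level. Psph, the phosphatase of the last step, rose 1.38-fold. Phgdh, the dehydrogenase of the first step, had a fitted ratio of 1.29 and missed the threshold. For Tdh, Gcat, Gldc and Mthfd1 the fitted log2 fold changes lay between -0.10 and 0.04, each smaller than its standard error.

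Psat1 had 113 CPM in the experiment 1 library from 10000 cells and 126 CPM in that from 20000 cells, against 189 and 195 CPM in the matching libraries of experiment 2. The experiment 2 library from 5000 cells, which has no partner in experiment 1 and stayed outside the fit, had 173 CPM. All 3 experiment 2 libraries therefore lay above both of experiment 1, with no overlap. The log2 fold change was 0.68 ± 0.12 (SE, 2 libraries per side, edgeR quasi-likelihood test, Benjamini-Hochberg adjusted p = 0.000438 over 12523 genes). The difference was similar at the 2 cell numbers, at 0.73 with 10000 cells and 0.62 with 20000 cells on the log2(CPM + 1) scale.

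Psph had 91.6 and 85.7 CPM in experiment 1 and 114 and 129 CPM in experiment 2 (10000 then 20000 cells), with 106 CPM in the library from 5000 cells. The experiments did not overlap here either. Its log2 fold change was 0.46 ± 0.13 (SE, edgeR adjusted p = 0.019). The call for Psph was lost without any of 3 of the 4 libraries (edgeR adjusted p from 0.0683 to 0.154) and was kept without the experiment 2 library from 10000 cells (0.0262).

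Phgdh had 183 and 177 CPM in experiment 1 and 203 and 260.1 CPM in experiment 2, with 200.3 CPM in the library from 5000 cells. Its 5 libraries also fell into 2 groups without overlap, but the experiment 2 library from 20000 cells stood well above the other 2 of that day. The log2 fold change was 0.36 ± 0.13 (SE, edgeR adjusted p = 0.0607). This value sits at the edge of the threshold. DESeq2 gave an adjusted p of 0.0493, edgeR on genes averaging 10 CPM or more gave 0.0281, edgeR without a filter gave 0.0284, and edgeR with cell number as a block gave 0.0499. It stayed above the threshold with RLE size factors (0.0554), with library size alone (0.0775) and with all 5 libraries (0.0854). Without the experiment 2 library from 20000 cells the log2 fold change was 0.19 (edgeR adjusted p = 0.495), and without that from 10000 cells it was 0.54 (0.0138).

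Summed over the 3 genes, serine synthesis took 388 and 389 CPM in experiment 1 and 506 and 585 CPM in experiment 2, with 479 CPM in the library from 5000 cells. Tdh and Gcat together took 722 and 762 CPM in experiment 1, 665 and 823 CPM in experiment 2, and 624 CPM in the smallest library. The ratio of the serine sum to the threonine sum was 0.537 and 0.51 in experiment 1 and 0.71 to 0.768 in the 3 libraries of experiment 2. The sums were formed after the values of single genes had been seen and are a description.

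**Figure D1:**
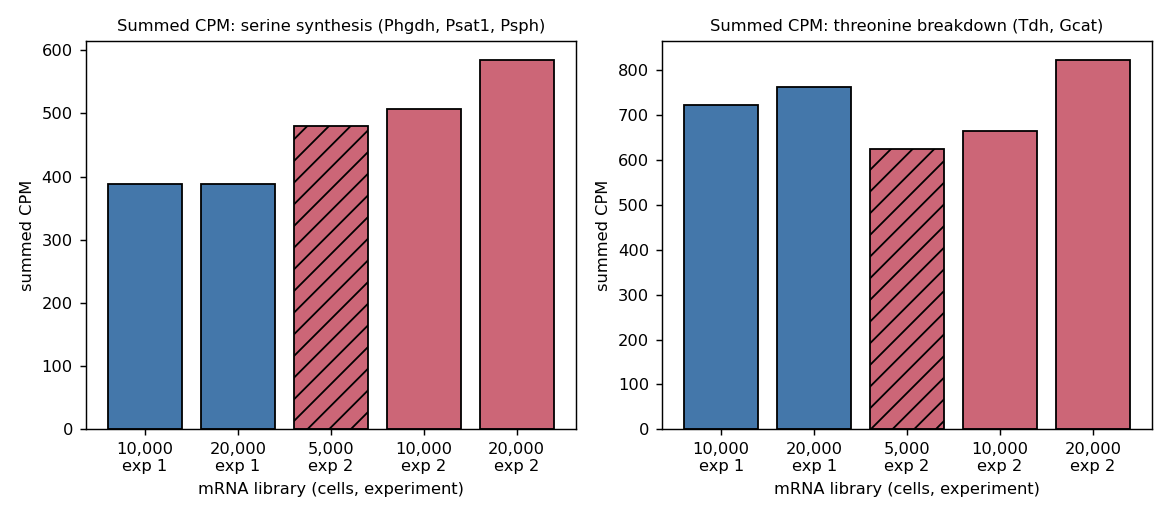
Summed CPM of the serine synthesis genes (left) and of Tdh with Gcat (right) in each of the 5 mRNA libraries, blue for experiment 1, red for experiment 2 and hatched for the library from 5000 cells, which is outside the fit. The serine sum is 388 and 389 CPM in experiment 1 and 479 to 585 CPM in experiment 2, while the threonine sum overlaps between the experiments.

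Tdh had 414 and 455 CPM in experiment 1, 392 and 464 CPM in experiment 2, and 365 CPM in the library from 5000 cells. In each experiment the library from 20000 cells was the higher, and the experiments overlapped. The log2 fold change between experiments was -0.02 ± 0.12 (SE, edgeR adjusted p = 0.943). Tdh lies on mm10 chromosome 14 (63492347 to 63509092), where 185 genes averaging 10 CPM or more had a median log2 fold change of 0.20.

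Gcat takes the product of Tdh to glycine. It had 308.5 and 307 CPM in experiment 1, 274 and 359.7 CPM in experiment 2, and 259 CPM in the smallest library. The experiment 2 values straddled those of experiment 1. The log2 fold change was 0.04 ± 0.12 (SE, edgeR adjusted p = 0.891), and it changed sign when the experiment 2 library from 20000 cells was left out (-0.16) and when the library from 5000 cells was added (-0.01). Gcat lies on chromosome 15, where the median of 310 genes was -0.25. Gldc was the gene of the 10 with the fewest counts, 267 to 418 per library, and its CPM were 19.45 and 22.7 in experiment 1, 18.8 and 20.5 in experiment 2 and 16.5 in the smallest library. Its log2 fold change was -0.10 ± 0.19 (SE, edgeR adjusted p = 0.801).

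The enzymes that split serine and carry its carbon gave mixed values. Shmt1 had 108 and 96.3 CPM in experiment 1 and 118 and 132 CPM in experiment 2, but 99.2 CPM with 5000 cells, between the libraries of experiment 1 (fitted change 0.29 ± 0.13 SE on the log2 scale, edgeR adjusted p = 0.155). Shmt2 had 61.6 and 74.3 CPM against 75.4 and 83.3 CPM, and 66.9 CPM with 5000 cells (0.22 ± 0.14 SE, edgeR adjusted p = 0.333). For both genes the fitted libraries of the experiments did not overlap, and the library from 5000 cells fell in the range of experiment 1.

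Mthfd2 had 103 and 86.3 CPM in experiment 1, 107 and 114 CPM in experiment 2 and 100.3 CPM in the smallest library (log2 fold change 0.22 ± 0.13 SE, edgeR adjusted p = 0.320). Mthfd1 had 324 and 364 CPM, then 315 and 362 CPM, and 283 CPM with 5000 cells (-0.02 ± 0.12 SE, edgeR adjusted p = 0.939). In Mthfd1, as in Tdh, the library from 20000 cells was the higher in each experiment and the library from 5000 cells was the lowest of all.

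**Figure D2:**
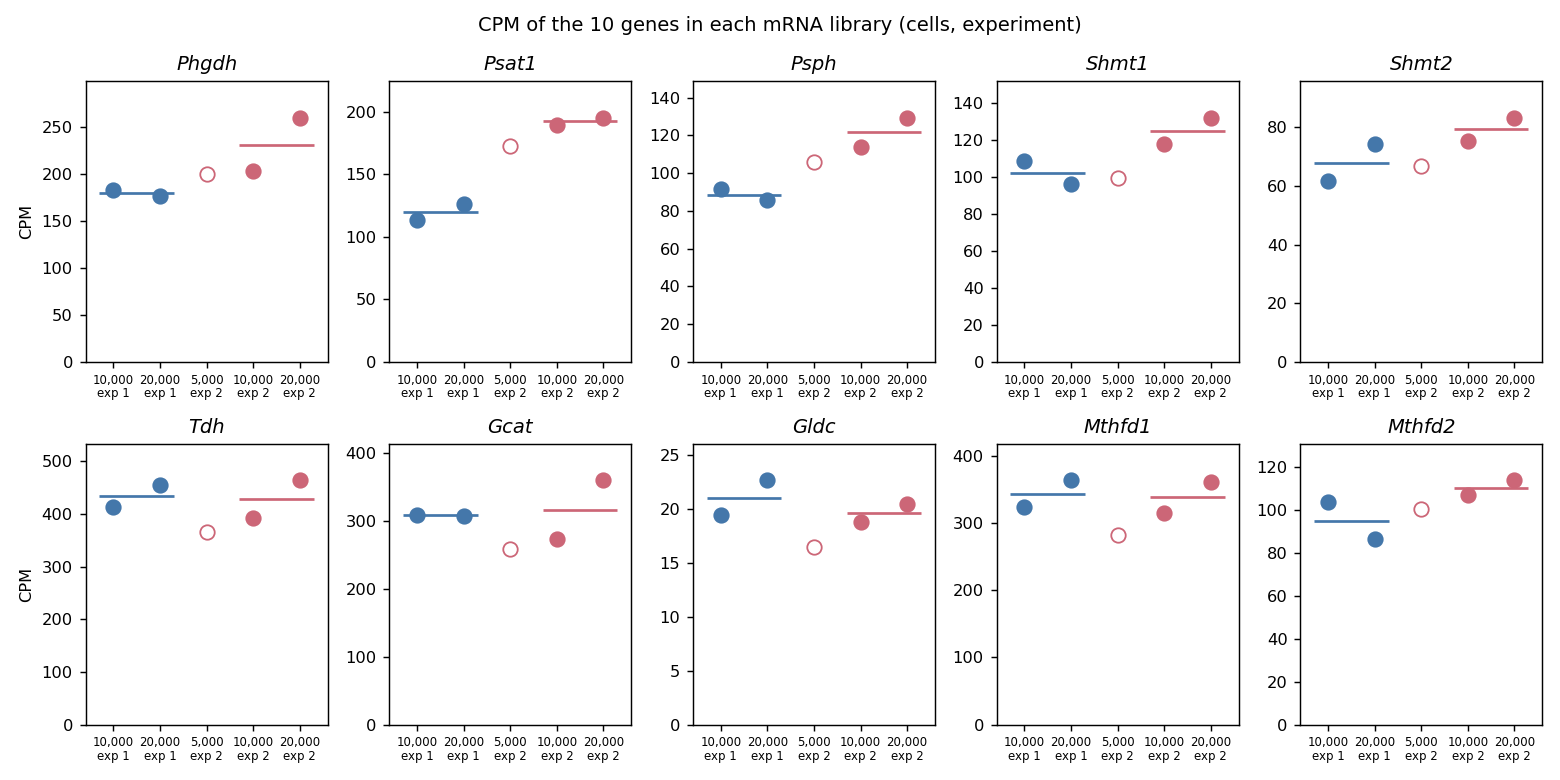
CPM of each gene in the 5 mRNA libraries, blue for experiment 1 and red for experiment 2, with the open circle for the library from 5000 cells and a line at the mean of the 2 fitted libraries. Psat1 rises from 113 and 126 CPM to 173 to 195 CPM without overlap, while Tdh, Gcat, Gldc and Mthfd1 overlap between the experiments.

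Between experiments, 2 of the 10 genes were called, both higher in experiment 2, and 4 had an unadjusted p under 0.05. Over all 12523 genes tested 12.5% were called, 5.75% as higher and 6.76% as lower, and 25.7% had an unadjusted p under 0.05. Among those averaging 10 CPM or more, as all 10 do, 16.8% were called, 8.67% as higher. The count of 2 called in 10 is thus near the background. The median log2 fold change of the 10 was 0.22, beside 0.00 over all genes tested. Their summed level was 1727 and 1794 CPM in experiment 1 and 1805 and 2119 CPM in experiment 2 (10000 then 20000 cells). With 5000 cells it was 1669 CPM, the lowest of all. For 6 of the 10 both fitted experiment 2 libraries were above both of experiment 1, which held for 26.6% of the genes tested. With the library from 5000 cells included, 3 of the 10, the serine synthesis genes, had all 3 experiment 2 libraries above experiment 1, against 17.7% of the genes tested. Psat1 lies on chromosome 19 (15905123 to 15925059), Psph on chromosome 5 (129765558 to 129787253) and Phgdh on chromosome 3 (98313171 to 98339969). The median log2 fold changes there were -0.02, -0.06 and 0.07.

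By a rule of likeness, the genes closest to Tdh over the 5 mRNA libraries were Vcp, Mthfd1 and Alg9, among 6284 genes compared. Their root mean square differences from Tdh in centred log2(CPM + 1) were 0.019, 0.021 and 0.023, and the median gene was at 0.208. Mthfd1, which ranked second, is itself among the 10 genes. Gldc ranked 115 and Gcat 195, whereas Psph ranked 4142 and Psat1 5625. This is a description over 5 libraries.

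Between 20000 and 10000 cells each side holds 1 library of each day, so that without a block the spread includes the difference between days. None of the 10 genes was called, and none had an unadjusted p under 0.05. Over all genes, 0% (0 of 12523) had an edgeR adjusted p under 0.05, 0.807% had an unadjusted p under 0.05, and DESeq2 called 0. With the experiment as a replicate block edgeR called 4 genes (0.0319%), none of the 10. The log2 fold changes at 20000 cells ran from -0.09 ± 0.20 for Mthfd2 to 0.18 ± 0.19 for Shmt2 (SE), and 8 of the 10 were positive. For Tdh it was 0.17 ± 0.15 and for Psat1 0.07 ± 0.31.

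Other genes of the pathway were taken from fixed lists, and their counts in experiment 2 against experiment 1 are set beside the 12.5% of all genes. Of 8 genes of glycine cleavage and amino acid breakdown, 4 had enough counts to be tested and 2 were called. Gcsh, the lipoyl carrier protein of the glycine cleavage system, rose from 225 and 211.5 CPM to 274 and 343 CPM, with 298 CPM at 5000 cells (log2 fold change 0.50 ± 0.12 SE, edgeR adjusted p = 0.00817). The median log2 fold change on its chromosome, 8, was 0.46. Sdsl, a relative of serine dehydratase named after its values were seen, fell from 12.02 and 8.83 CPM to 1.10 and 1.86 CPM (-2.79 ± 0.37 SE, edgeR adjusted p = 1.2e-05). Amt, the aminomethyltransferase of the glycine cleavage system, had at most 0.537 CPM in any library and was not tested.

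Of 16 genes of the folate cycle and folate uptake, 15 were tested, 1 rose and 1 fell, and the median log2 fold change was 0.01. Mthfd1l, the mitochondrial synthetase that releases formate, rose from 22.1 and 26.5 CPM to 36.7 and 42.0 CPM (0.70 ± 0.17 SE, edgeR adjusted p = 0.00788). With 5000 cells it had 28.1 CPM, still above both experiment 1 libraries. Its call was lost without the experiment 1 library from 10000 cells (0.0874) and without the experiment 2 library from 20000 cells (0.0977), and that of Gcsh without the latter (0.133). Fpgs, which adds glutamates that keep folate in the cell, fell by 0.42 on the log2 scale (SE 0.13, edgeR adjusted p = 0.0384), a call that was lost with library size alone (0.0521), with DESeq2 (0.0548) and with all 5 libraries (-0.32, 0.126), and without any of 3 of the 4 libraries. Tyms, which makes thymidylate, had a log2 fold change of 0.11 ± 0.12 (SE, not called).

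Of 12 genes of the methionine cycle, 10 were tested and 1 was called. Cth, the lyase that makes cysteine by transsulfuration, a route that takes its carbon skeleton from serine, rose from 30.7 and 26.4 CPM to 51.0 and 55.6 CPM, with 49.4 CPM at 5000 cells (0.90 ± 0.16 SE, edgeR adjusted p = 0.000354). The 3 experiment 2 libraries lay close together and far from experiment 1. Cbs, of the same list and route, went the other way without being called (-0.56 ± 0.23 SE, edgeR adjusted p = 0.1115). It had 16.25 and 15.1 CPM in experiment 1, 9.16 and 11.95 CPM in experiment 2 and 8.11 CPM with 5000 cells. Mat2a, which makes S-adenosylmethionine, had a log2 fold change of 0.26 ± 0.12 (SE, not called). Among 11 purine synthesis genes 2 fell and 9 had negative log2 fold changes, with a median of -0.11. Impdh1, an isoenzyme of guanine nucleotide synthesis, fell from 46.1 and 47.8 CPM to 24.6 and 33.1 CPM (-0.70 ± 0.17 SE, edgeR adjusted p = 0.00636), a call lost without the experiment 2 library from 10000 cells (adjusted p = 0.155). Adssl1, an adenylosuccinate synthase named after its values were seen, was the other (-0.95 ± 0.26 SE, edgeR adjusted p = 0.0148). Its call was lost with DESeq2 (0.0629) and without any of 3 of the 4 libraries (0.0728 to 0.124). Of 11 transporters of serine, glycine and related amino acids, 0 were called by edgeR, and their median was 0.01. The largest fitted value among those named here was that of Slc7a5, part of a large neutral amino acid exchanger, at 0.49 ± 0.19 (SE, edgeR adjusted p = 0.0832), on chromosome 8 with its median of 0.46. Experiments 1 and 2 had 33.3 and 34.2 CPM of it with 10000 cells but 23.3 and 45.4 CPM with 20000 cells. The library from 5000 cells, at 27.2 CPM, fell in the range of experiment 1.

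Atf4 is a transcription factor of the amino acid response, and Phgdh, Psat1, Psph, Shmt2 and Mthfd2 are known among its targets. Of Atf4 and 14 other known targets, 7 of 15 were called (46.7%), 3 higher and 4 lower, with a median log2 fold change of -0.11. That count moved with the libraries: 1 gene was called lower, with 3 higher, without the experiment 2 library from 10000 cells, 1 higher, with 3 lower, without that from 20000 cells, and 2 each way without the experiment 1 library from 10000 cells. It moved with the method too: DESeq2 called 4 higher and 2 lower. With genes averaging 10 CPM or more, which leaves out Ddit3, edgeR called 4 higher and 3 lower. The 3 higher of the 7 load amino acids on tRNA. Aars (alanine) went from 161 and 192 CPM to 293 and 387 CPM (0.95 ± 0.13 SE, edgeR adjusted p = 2.3e-05), Sars (serine) rose by 0.59 ± 0.13 and Gars (glycine) by 0.42 ± 0.12 on the log2 scale (SE, edgeR adjusted p = 0.00345 and 0.0166). Aars is on chromosome 8, with its median of 0.46. The call for Sars was lost without the experiment 2 library from 20000 cells (adjusted p = 0.0665), and that for Gars was kept only without the experiment 2 library from 10000 cells (0.0262).

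The genes of that list that fell have other roles. Ddit4 and Sesn2 restrain mTORC1, Chac1 degrades glutathione, and Ddit3 (named after its values were seen) encodes the stress factor CHOP. Ddit4 fell from 33.2 and 50.5 CPM to 18.4 and 24.0 CPM (-0.98 ± 0.19 SE, edgeR adjusted p = 0.00128). The log2 fold changes of the others were -0.80 ± 0.24 for Sesn2, -0.49 ± 0.15 for Chac1 and -1.28 ± 0.29 for Ddit3 (SE, edgeR adjusted p = 0.0274, 0.0332 and 0.0047). In Sesn2 the libraries overlapped: with 10000 cells the experiments had 41.3 and 13.9 CPM, but with 20000 cells 21.9 and 22.1 CPM. Without the experiment 1 library from 10000 cells the fitted value of Sesn2 was -0.27 (edgeR adjusted p = 0.606). Its call was also lost without the experiment 2 library from 10000 cells (0.359), as was that of Ddit3 (0.122), and that of Chac1 was kept only without the experiment 1 library from 20000 cells (0.0275). DESeq2 called 2 of these 4 genes, with adjusted p of 0.0901 for Sesn2 and 0.0637 for Chac1. Atf4 itself had a log2 fold change of -0.11 ± 0.11 (SE, not called), on chromosome 15 with its median of -0.25. Asns, the asparagine synthetase, had one of 0.32 ± 0.12 (SE, edgeR adjusted p = 0.0757).

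**Figure D3:**
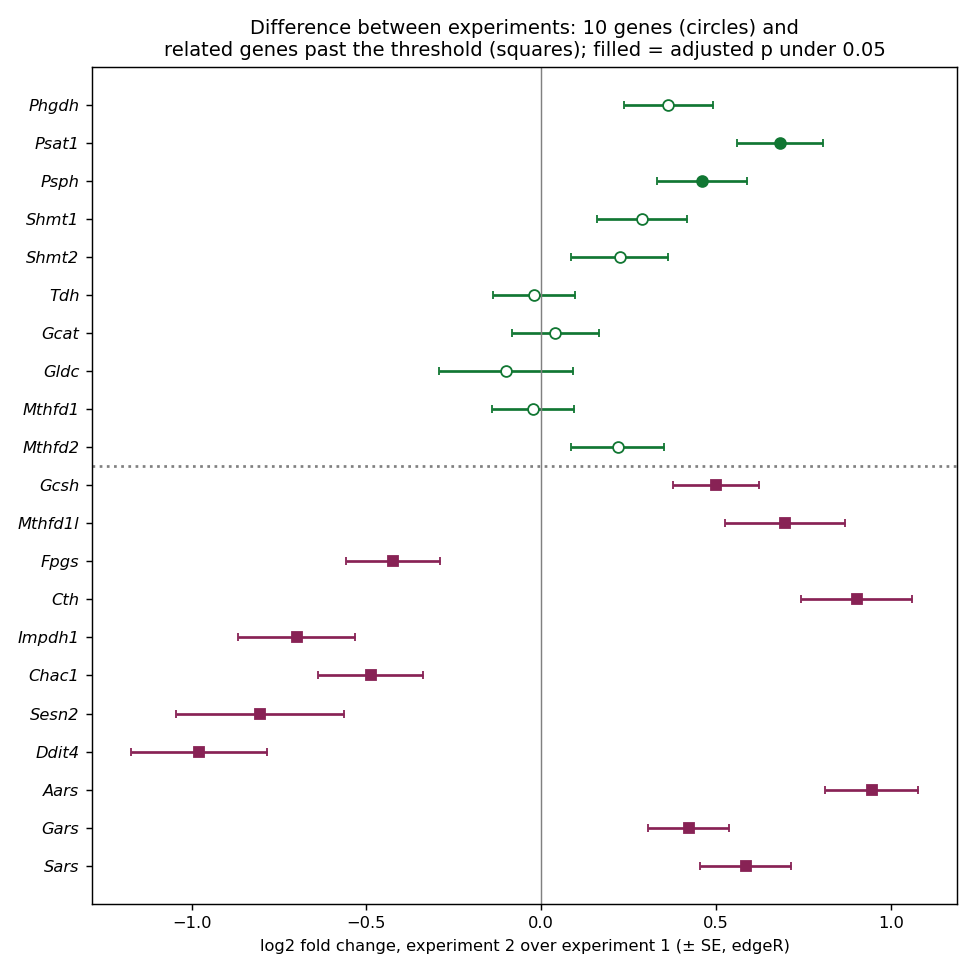
Log2 fold change of experiment 2 over experiment 1 with its standard error from edgeR for the 10 genes (circles) and for genes of the related lists past the threshold and averaging 10 CPM or more (squares), filled where the adjusted p is under 0.05. Psat1 (0.68) and Psph (0.46) are the filled circles, and the squares lie on both sides of 0, from Ddit4 at -0.98 to Aars at 0.95.

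Open chromatin at the start of each gene was read from the 8 ATAC peak lists. A promoter peak is any listed interval that reaches within 1000 bp of the 5′ end of the gene in the count table. The lists give positions only, with no height or depth, and many intervals are 9 bp long, so that presence and width are the available measures. The 10 genes had a promoter peak in 60 of 80 gene and list pairs. The low-input list from 5000 cells held one for 7 of the 10 genes, beside 31.1% of all genes and 62.7% of genes averaging 10 CPM or more. Both low-input lists from 10000 cells held 7, beside 31.1% and 61.7% in experiment 1 and 40.5% and 76.9% in experiment 2. From 20000 cells the experiment 1 list held 7 (37.4% and 71.2%) and the experiment 2 list 9 (50.3% and 88.8%). The Omni-ATAC lists held 5 from 5000 cells (18.6% and 38.8%), 8 from 10000 (41.5% and 75.9%) and 10 from 50000 (61.1% and 95.7%). The counts for the 10 genes lay near the shares among genes averaging 10 CPM or more.

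The genes themselves fell into 2 sets. Shmt1, Mthfd1, Mthfd2 and Psph had a promoter peak in 8 of 8 lists, and Gcat, Gldc and Psat1 in 7. Shmt2 had one in 3 lists, and Tdh and Phgdh in 2 each. Tdh had it only in the longest low-input list (47 bp wide, experiment 2, 20000 cells) and in Omni-ATAC with 50000 cells (335 bp). Phgdh had none in the 5 low-input lists, and peaks of 21 and 266 bp in Omni-ATAC with 10000 and 50000 cells. Of 1385 genes averaging 100 CPM or more, a level chosen with Tdh and Phgdh in view, 11.3% had a promoter peak in at most 2 lists and 7.36% had none in the low-input lists, whereas 54.6% had one in at least 7 lists.

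**Figure D4:**
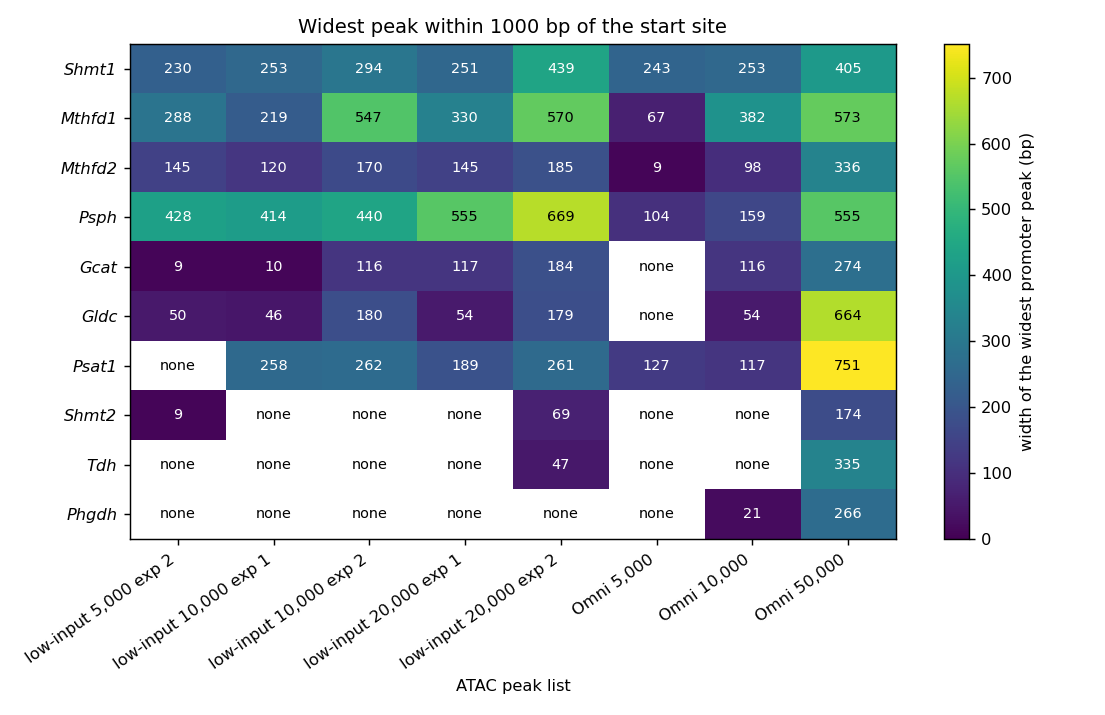
Width in bp of the widest peak within 1000 bp of the start site for each gene (rows) in each ATAC list (columns), with white cells where the list has none. Shmt1, Mthfd1, Mthfd2 and Psph have a peak in all 8 lists, while Phgdh, Tdh and Shmt2 have one in 2, 2 and 3 lists.

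The 3 serine synthesis genes differed in this respect although all 3 had more CPM in each experiment 2 library than in either of experiment 1. Psat1 had a promoter peak in both experiment 1 lists (258 and 189 bp wide with 10000 and 20000 cells) and in both matching experiment 2 lists (262 and 261 bp). It had none in the low-input list from 5000 cells, although that mRNA library had 173 CPM. Psph had peaks of 414 and 555 bp in experiment 1 and 440 and 669 bp in experiment 2. The start of Psph lies 103 bp from that of Cct6a, a chaperonin subunit gene read in the opposite direction, and in 5 of the 8 lists a peak covers both starts, so the genes cannot be told apart there. Cct6a had a log2 fold change of -0.02 ± 0.11 (SE, edgeR adjusted p = 0.937).

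The promoters of these 3 genes and of the 2 serine hydroxymethyltransferases are shown because they contrast starts with and without a regular peak. Each is the RefSeq window (GRCm38.p6) from 250 bases before to 50 bases after the start, in the direction of the gene, and the windows are chr3:98339920-98340219 for Phgdh, chr19:15925010-15925309 for Psat1, chr5:129787204-129787503 for Psph, chr11:60811216-60811515 for Shmt1 and chr10:127522395-127522694 for Shmt2, each on the minus strand. Capitals mark matches on either strand to CCAAT (the NF-Y box), GGGCGG (SP and KLF factors), GCGCATGC (NRF1 type), CCGGAAG (ETS), CACGTG (an E-box) and TGATGNAA (ATF4 and C/EBP type).
Phgdh: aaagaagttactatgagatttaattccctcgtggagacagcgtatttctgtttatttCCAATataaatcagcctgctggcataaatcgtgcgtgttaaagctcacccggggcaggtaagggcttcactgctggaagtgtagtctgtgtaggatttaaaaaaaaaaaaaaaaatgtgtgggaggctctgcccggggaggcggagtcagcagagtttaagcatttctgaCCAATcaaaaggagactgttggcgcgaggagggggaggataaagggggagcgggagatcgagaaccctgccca
Psat1: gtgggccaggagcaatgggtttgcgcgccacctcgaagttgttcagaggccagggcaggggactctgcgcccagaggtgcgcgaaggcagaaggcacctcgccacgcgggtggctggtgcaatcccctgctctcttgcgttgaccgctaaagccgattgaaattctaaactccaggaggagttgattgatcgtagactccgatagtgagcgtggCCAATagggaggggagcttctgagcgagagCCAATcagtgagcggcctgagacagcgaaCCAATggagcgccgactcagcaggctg
Psph: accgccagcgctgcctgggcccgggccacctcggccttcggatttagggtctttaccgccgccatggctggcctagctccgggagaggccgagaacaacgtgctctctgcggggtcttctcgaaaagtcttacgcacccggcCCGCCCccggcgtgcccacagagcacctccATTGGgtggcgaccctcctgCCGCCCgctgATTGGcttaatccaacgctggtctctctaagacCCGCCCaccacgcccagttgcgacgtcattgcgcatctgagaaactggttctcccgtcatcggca
Shmt1: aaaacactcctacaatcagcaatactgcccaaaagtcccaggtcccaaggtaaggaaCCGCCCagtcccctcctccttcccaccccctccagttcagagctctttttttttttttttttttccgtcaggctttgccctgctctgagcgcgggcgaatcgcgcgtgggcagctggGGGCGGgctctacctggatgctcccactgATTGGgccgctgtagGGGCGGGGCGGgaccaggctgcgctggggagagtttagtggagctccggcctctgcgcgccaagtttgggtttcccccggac
Shmt2: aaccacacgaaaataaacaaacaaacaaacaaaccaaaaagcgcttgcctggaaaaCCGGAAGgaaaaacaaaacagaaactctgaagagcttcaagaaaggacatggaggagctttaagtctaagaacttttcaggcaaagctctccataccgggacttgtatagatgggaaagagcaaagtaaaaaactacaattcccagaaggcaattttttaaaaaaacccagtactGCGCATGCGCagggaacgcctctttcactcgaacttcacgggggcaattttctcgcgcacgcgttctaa

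In Psat1 the 3 capital runs are CCAAT boxes, which begin at -36, -6 and 23 from the start, and the peak of the deposited unified list (chr19:15924925-15925186) covers all of them. Psph holds CCAAT boxes at -78 and -48 and GGGCGG at -108, -58 and -15. Phgdh holds only CCAAT, at -193 and -23. Shmt1 has GGGCGG at -193, -76, -32 and -27 and a CCAAT box at -47, whereas Shmt2 has neither. It holds instead a pair of overlapping matches to GCGCATGC at -19 and -17 and an ETS match at -194. Positions count the start as 0 and refer to the first base of a match.

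RefSeq windows were matched for 9 of the 10 genes, with 2 for Psat1 and none for Tdh. CCAAT was found in 7 of the 10 windows, against 37.4% of 32851 promoter windows of the same length. GGGCGG was found in 6 of 10, against 35.7%, and TGATGNAA in 0 of 10, against 3.97%. GCGCATGC (2.71% of all windows) occurred in Shmt2 only, CACGTG (7.15%) in Gcat only, and CCGGAAG (8.86%) in Shmt2 and in the second Psat1 window. A match describes letters and shows no binding. The windows of Shmt2 and Phgdh had the lowest GC content of the 10, at 42.7% and 47.7%, and the other 8 ran from 55.7% to 66.7% (median of all windows 52.7%). Their ratio of observed to expected CpG was 0.956 and 0.697, above the median of all windows, 0.384. All windows of these genes except that of Gldc (0.3885) had a ratio of at least 0.6, against 35.8% of all windows. Motif shares among windows with such a ratio were not calculated.

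Some peaks recurred inside the genes, away from the start. In Tdh a peak within chr14:63500242-63500742, between 8350 and 8850 bp from the start, was listed in 7 of 8 lists, all except Omni-ATAC with 5000 cells. Its width was 14 to 494 bp, and 9 bases (63500254 to 63500262) were common to the widest peak there in each of the 7 lists. The interior of Tdh was thus listed more often than its start. Of the 1385 genes, 29 (2.09%) combined a promoter peak in at most 2 lists with a peak elsewhere in the gene in at least 7, a count made after the values of Tdh were seen.

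Psph had a peak within chr5:129778988-129779369, 7884 to 8265 bp from its start, in all 8 lists, and Gcat one within chr15:79037907-79038289 in 6. In both genes the intervals of the lists have no base common to all, and some do not overlap each other. A peak that crosses the far end of Phgdh, within chr3:98313052-98313201, was listed with 10000 and 20000 cells in experiment 2 and with 50000 cells in Omni-ATAC. Neither experiment 1 list held it, nor did the experiment 2 list from 5000 cells (18637 intervals). Omni-ATAC with 10000 cells had a 9 bp interval just beyond that end. The experiment 2 lists were longer at equal cell number (29870 and 49508 intervals against 18877 and 27016), so the experiment and the length of the list cannot be told apart. Exons and introns were not assigned here.

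**Figure D5:**
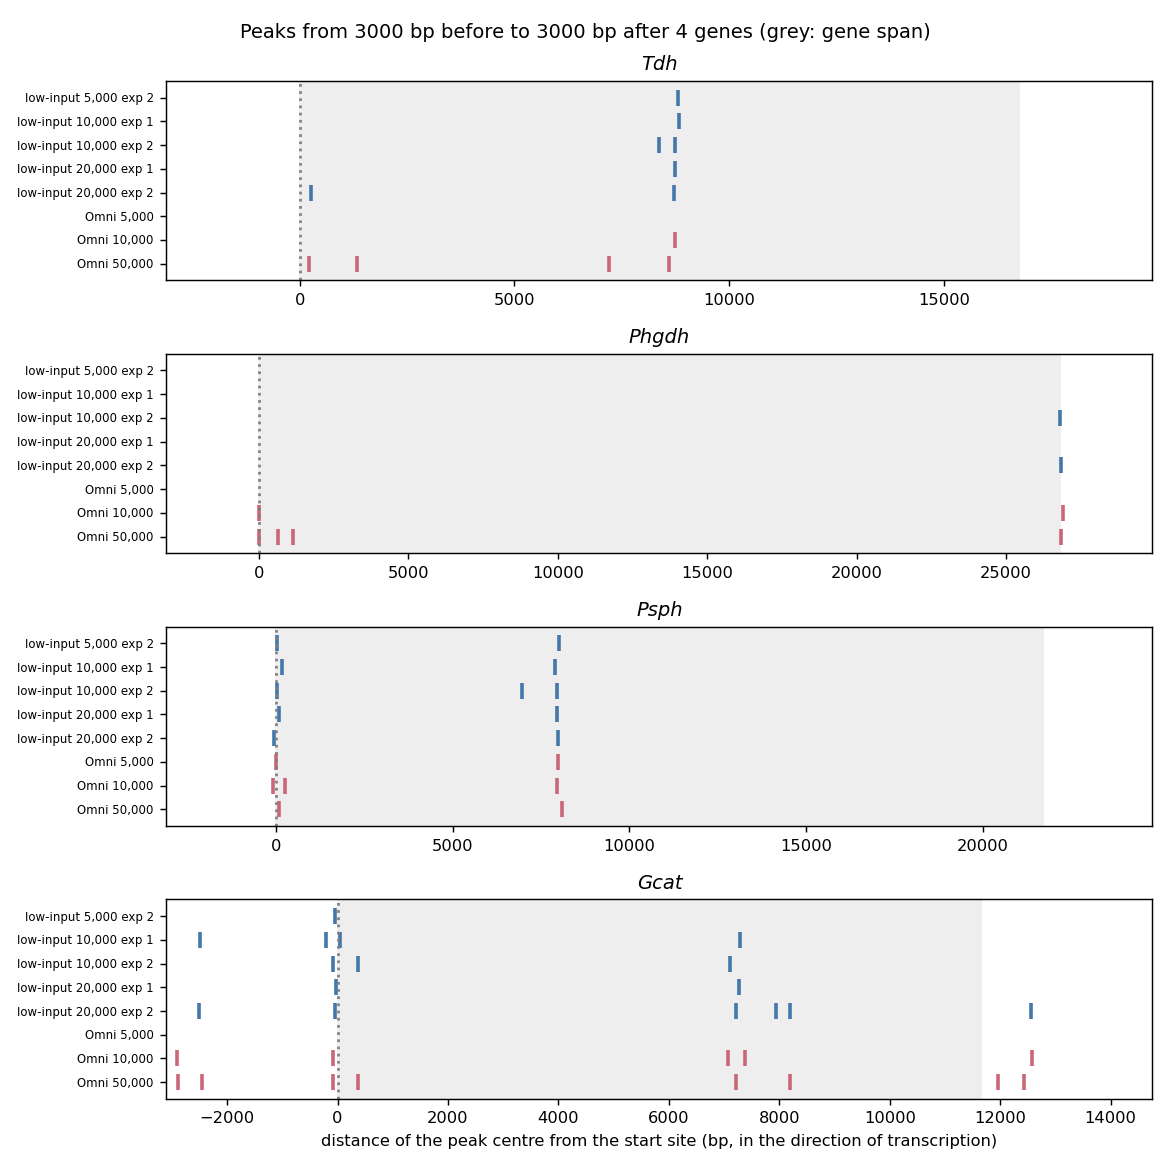
Centres of the peaks from 3000 bp before to 3000 bp after Tdh, Phgdh, Psph and Gcat, by distance from the start site in bp in the direction of transcription, with a row per ATAC list (blue for low-input, red for Omni-ATAC) and the gene span in grey. In Tdh the column of marks between 8350 and 8850 bp is present in 7 lists, while marks near 0 are present in 2.

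Reads shared with other genes limit some values. In the count table Shmt2 overlaps Ndufa4l2, on the opposite strand, by 32 bp, and Gcat overlaps Galr3 by 647 bp. These neighbours had at most 88 and 5 counts in any library, and the use of strand in counting is not given in the sources used here. Phgdh has an annotated pseudogene, Phgdh-ps1, and reads that match both could have been split or dropped.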

How the data were processed

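The authors deposited raw gene counts for 5 mRNA libraries. The gene coordinates are mm10 per the file headers. STAR 2.5, featureCounts (Subread 1.5.0-p1), Bowtie2 2.1.0 and MACS2 2.1.1 are named in the submitters' processing notes. Annotation version, strand use, treatment of reads that match several places and peak threshold are not given in the sources used here. The authors also deposited a peak list without scores for each ATAC library. Their read depth is unknown.

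Total counts were 13727122 to 20426252, and 0 other per-sample columns were present. CPM were calculated from those deposited counts. Differential expression used edgeR 4.0.16 (R 4.3.3, TMM, filterByExpr, glmQLFit, glmQLFTest), with Benjamini-Hochberg adjusted p under 0.05 over all genes. The fits took the 4 libraries from 10000 and 20000 cells, without a block. DESeq2 1.42.0 was an alternative. Scripts were tested on simulated counts. Libraries were checked for duplicates (chi-square per gene at least 10.7 in every pair). The experiment number marks a shared day per the series' design text, so it pairs libraries: the shift from experiment 1 to 2 with 10000 cells and that with 20000 cells had r = 0.5625 across 11512 genes and equal signs in 67.0%.

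A promoter peak overlaps the start ± 1000 bp by at least 1 bp. Coordinates were read as 1-based. RefSeq promoter windows carry the build GRCm38.p6, the assembly behind mm10: 24467 gene IDs matched, with 67.0% of starts equal. The 10 genes, the lists and the alternatives were chosen with earlier results of these data known. All 10 genes are named, with genes of each list that were called at a mean of at least 10 CPM (at most 4 per direction) and the 3 genes nearest to Tdh by root mean square difference of centred log2(CPM + 1), among genes averaging 10 CPM or more whose range was at least 0.5 times that of Tdh. Python 3.11.15, numpy 2.4.6, pandas 2.3.3 and matplotlib 3.10.9 were used.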

Additional observations from a re-analysis of the deposited data

Results flagged for a closer look

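In Tdh, Gcat and Sesn2 the experiments differed in opposite directions at the 2 cell numbers. The log2(CPM + 1) of experiment 2 minus experiment 1 was -0.08 for Tdh with 10000 cells and 0.03 with 20000 cells, a gap of 0.11. For Gcat the values were -0.17 and 0.23, a gap of 0.40, and for Sesn2 -1.51 and 0.02, a gap of 1.525. Genes outside that set reversed too, such as the stem cell marker Pou5f1 (-0.57 and 0.63). Each value compares 1 library with 1 library, so the gaps were not tested.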

How the results depend on the processing

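Leaving out each of the 4 libraries in turn gave 803 to 1817 genes called between experiments (1567 with all 4), 1 to 3 of the 10 genes (2 with all 4) and 8 to 13 genes of the related lists (14 with all 4). Psat1 was called in each of these fits, and Psph only without the experiment 2 library from 10000 cells, when Phgdh was called too. The lowest counts over all genes came without a library of experiment 2 (803 from 10000 cells, 869 from 20000 cells) and without that from 10000 cells of experiment 1 (1018). A side left with 1 library is assumed to vary like the other. Under the other 7 alternatives 2 or 3 of the 10 genes were called, the third being Phgdh. Tdh, Gcat, Gldc and Mthfd1 changed sign under some settings without being called. Between cell numbers 0 of the 10 genes were called in any alternative. Over all genes, 0 rose to 2 without a filter on low counts and to 4 with the replicate block, which changed no call among the 10. Dropping the filter moved the median log2 fold change of all genes between experiments to 0.12, or 0.03 over the genes that pass the filter. The 60 promoter peaks were also found within 500 and 2500 bp, fell to 53 with peaks of at least 50 bp and to 43 with the 9097 widest peaks per list, where Tdh, Phgdh and Shmt2 had none. The unified list held a promoter peak for 7 of the 10, the number with one in at least 4 lists. No ATAC depth is known, so a missing peak does not show closed chromatin.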
